A study of Mus musculus with 15 samples.

Results

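The genes described here encode the Wnt ligands, their Frizzled receptors and the secreted antagonists of the Dickkopf (Dkk) and Sfrp families in developing mouse Purkinje cells (PCs). They were chosen by name, as the protein-coding genes whose symbol starts with Wnt, Fzd, Dkk or Sfrp and continues with a digit. This gave 37 of the 38561 genes in the count files, namely 19 Wnt, 10 Fzd, 4 Dkk and 4 Sfrp genes. Wnt proteins are secreted, lipid-modified ligands that bind the cysteine-rich domain of Frizzled receptors. Together with the co-receptors Lrp5 and Lrp6 they stabilise beta-catenin, which then acts with TCF/LEF factors on target genes, and through other partners they act on cell polarity and on calcium. Dkk proteins mostly block the co-receptors, while Sfrp proteins carry a Frizzled-like domain and can bind the ligand itself. In the cerebellum, Wnt signals are known for their part in early patterning and in the growth of axons and synapses.

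PCs, the output neurons of the cerebellar cortex, were cut from the cerebellum by laser microdissection at postnatal day 0 (P0), P4, P8, P14 and P21. Each of these 5 ages had 3 biological replicates, which makes 15 libraries. The strain is written C56/BL6 in the labels and C57/BL6 in the study's methods, the animals were males for which no treatment or altered allele is given, and age was the stated difference between groups. At P0 clusters of PCs were captured, whereas single cell bodies were captured from P4 onwards, so that this difference in capture and the age cannot be told apart in any comparison with P0. Counts on genes totalled 3409371 to 7814951 per library (median 5345170), and 18.2 to 31.0% of the reads were not assigned to exactly 1 gene and were not counted. This share was 25.3 to 31.0% at P0 and at most 24.7% at the later ages. Between replicates the chi-square per gene was 18.4 to 56.5, well beyond what counting error gives. The 6 PC markers Pcp2, Pcp4, Calb1, Car8, Itpr1 and Ppp1r17 were present as the label implies, with a summed level that rose from a mean of 5340 CPM (counts per 1000000 counts) at P0 to 42940 at P21. Markers of other cells were present too. The summed level of 8 markers of Bergmann glia and astrocytes had a mean of 4608 CPM at P0, 9102 at P8 and 3651 at P21.

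Levels over time are given in CPM scaled by the trimmed mean of M-values, and levels are compared between genes only as RPKM, in which the count is divided by the exon length in kilobases and by the library total. Each gene was tested with the quasi-likelihood F test of edgeR over all 15 libraries, once for a log-linear trend with postnatal day and once with the time point as a factor, which also picks up peaks and dips. A change was called at a Benjamini-Hochberg adjusted p below 0.05 over the 14293 genes that passed the filter on low counts.

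Of the 37 genes, 29 had at least 1 count, 19 passed the filter, 10 were counted but fell below it and 8 had no count in any library. The trend test called 3 members rising, Wnt3, Fzd1 and Fzd4, where 12.1% of all tested genes rose. It called 3 falling, Wnt7b, Fzd3 and Sfrp2, against 14.1% of all tested genes. With the time point as a factor 7 members changed, against 19.3% of all tested genes: Wnt3, Wnt7a, Wnt10b, Fzd1, Fzd3, Fzd4 and Sfrp2. This count was 4, 3 and 4 without P14 replicate 1, 2 or 3, and 3 without the P0 time point. It was not set beside the share of all tested genes in those fits. The median slope of the 19 tested members was -0.0007 log2 CPM per day, and that of all tested genes was -0.0077. Among the 13 tested members with a count at every time point the median slope was -0.063. That set leaves out Wnt4, Wnt6, Wnt7a, Wnt10b, Wnt16 and Fzd4, all but Wnt4 with a positive slope. The median of all tested genes was not restricted in this way.

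The promoters of members called by the trend test are shown first. Those of Wnt7a and Wnt10b, called by the factor test alone, are not shown. They comprise the 250 bases before the RefSeq transcription start on GRCm38.p6, written 5′ to 3′ on the strand of the gene. Capitals mark the core of the TCF/LEF motif, CTTTG, or its reverse complement CAAAG. A window was given for 4 of the 6 genes with a trend. For Wnt7b and Fzd3 no sequence is shown.
Wnt3 (chr11:103773925-103774174, plus strand): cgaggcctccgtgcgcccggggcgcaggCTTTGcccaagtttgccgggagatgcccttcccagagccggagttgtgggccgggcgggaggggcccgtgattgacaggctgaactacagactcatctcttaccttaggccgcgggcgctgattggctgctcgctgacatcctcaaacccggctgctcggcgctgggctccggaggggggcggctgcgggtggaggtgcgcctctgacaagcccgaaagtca
Fzd1 (chr5:4758217-4758466, minus strand): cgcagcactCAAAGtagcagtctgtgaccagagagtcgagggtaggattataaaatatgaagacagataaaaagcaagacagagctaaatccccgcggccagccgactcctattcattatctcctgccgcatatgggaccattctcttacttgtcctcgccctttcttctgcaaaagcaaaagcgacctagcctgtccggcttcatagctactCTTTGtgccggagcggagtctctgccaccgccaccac
Fzd4 (chr7:89404116-89404365, plus strand): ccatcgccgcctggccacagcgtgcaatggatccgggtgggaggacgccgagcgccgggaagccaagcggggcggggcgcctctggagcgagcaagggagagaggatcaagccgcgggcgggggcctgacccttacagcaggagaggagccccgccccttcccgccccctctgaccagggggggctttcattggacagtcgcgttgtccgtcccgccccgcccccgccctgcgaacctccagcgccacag
Sfrp2 (chr3:83766071-83766320, plus strand): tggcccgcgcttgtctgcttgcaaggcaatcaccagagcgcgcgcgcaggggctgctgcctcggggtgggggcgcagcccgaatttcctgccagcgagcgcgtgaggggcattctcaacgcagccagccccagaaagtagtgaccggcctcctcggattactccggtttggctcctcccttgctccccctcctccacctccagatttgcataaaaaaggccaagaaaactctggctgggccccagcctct

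The motif occurred 1 time in the window of Wnt3, 2 times in that of Fzd1 and in neither that of Fzd4 nor that of Sfrp2. On either strand it was found in 48.6% of the 32851 promoter windows of the same length. The nuclear receptor half-site AGGTCA, or its reverse complement TGACCT, was in 14% of all windows and in none of the 4. GC content was 68% for Wnt3, 72.8% for Fzd4, 63.6% for Sfrp2 and 51.2% for Fzd1, with 22, 25, 16 and 12 CpG dinucleotides. The median over all windows was 52.4% GC and 6 CpG.

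Among the ligands, Wnt3 had the highest level and the clearest rise. Wnt3 can act through beta-catenin, and PCs are a known source of it in the cerebellum. The gene (ENSMUSG00000000125) lies on chromosome 11, from 103774150 to 103817957 on the plus strand of GRCm38, and its exons overlap no other gene. In replicates 1, 2 and 3, Wnt3 stood at 32.9, 104 and 27.0 CPM at P0, at 13.5, 64.4 and 36.0 at P4, at 49.2, 53.4 and 25.7 at P8, at 126, 131 and 130 at P14, and at 183, 173 and 138 at P21. All 6 libraries of P14 and P21 lay above all 9 earlier ones, of which P0 replicate 2 came nearest. The earlier time points overlapped one another, and every P21 library lay above every P14 library.

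The mean of Wnt3 was 54.7 ± 43.1 CPM (SD, n = 3) at P0, 38.0 ± 25.5 at P4 and 42.8 ± 14.9 at P8. It then stood at 129 ± 2.5 CPM at P14 and 164 ± 23.6 at P21, which is 4.33 times the P4 mean, or 6.65 times without P4 replicate 2. The slope was 0.096 log2 CPM per day (SE 0.023, adjusted p = 0.00427 by the edgeR trend test), and the factor test gave an adjusted p of 0.0132. No single library ended either call when left out, whereas with log2(day + 1) in place of the day the trend had an adjusted p of 0.0552. The largest step lay between P8 and P14, with a log2 fold change of 1.59 (SE 0.52). It missed the threshold in edgeR (adjusted p = 0.137), and it was called by DESeq2 and by limma-voom. The step from P14 to P21 was 0.35 (SE 0.51, adjusted p = 1.0). Wnt3 was the 1 member with every P14 and P21 library above every earlier one, a pattern shown by 5.10% of all tested genes. No member showed the opposite pattern, against 4.10% of all tested genes.

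In libraries of captured tissue, a higher level of a transcript may reflect more cells of a type or more RNA per cell, and these cannot be told apart here. All 6 PC markers were called rising by the trend test, the direction of Wnt3. From P0 to P21 their means rose by 4.79-fold for Pcp4 to 1596-fold for Ppp1r17, while the mean of Wnt3 at P21 was 3.0 times that at P0. The value of Wnt3 rests on P0 replicate 2, without which it was 5.5, above the 5.20 of Pcp4 in the same libraries. From P8 to P21 the ratio was 3.85 for Wnt3, 1.80 for Calb1, 1.92 for Pcp2, 2.37 for Pcp4, 2.5 for Car8, 2.78 for Itpr1 and 4.38 for Ppp1r17. The summed level of the 5 oligodendrocyte markers Cnp, Mbp, Mag, Mog and Mobp also rose (5 of 5 called), from 13.7 to 35.9 CPM at P0 to 396 to 845 CPM at P21. Their part, and that of the share of PCs, in the level of Wnt3 was not tested.

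**Figure D1:**
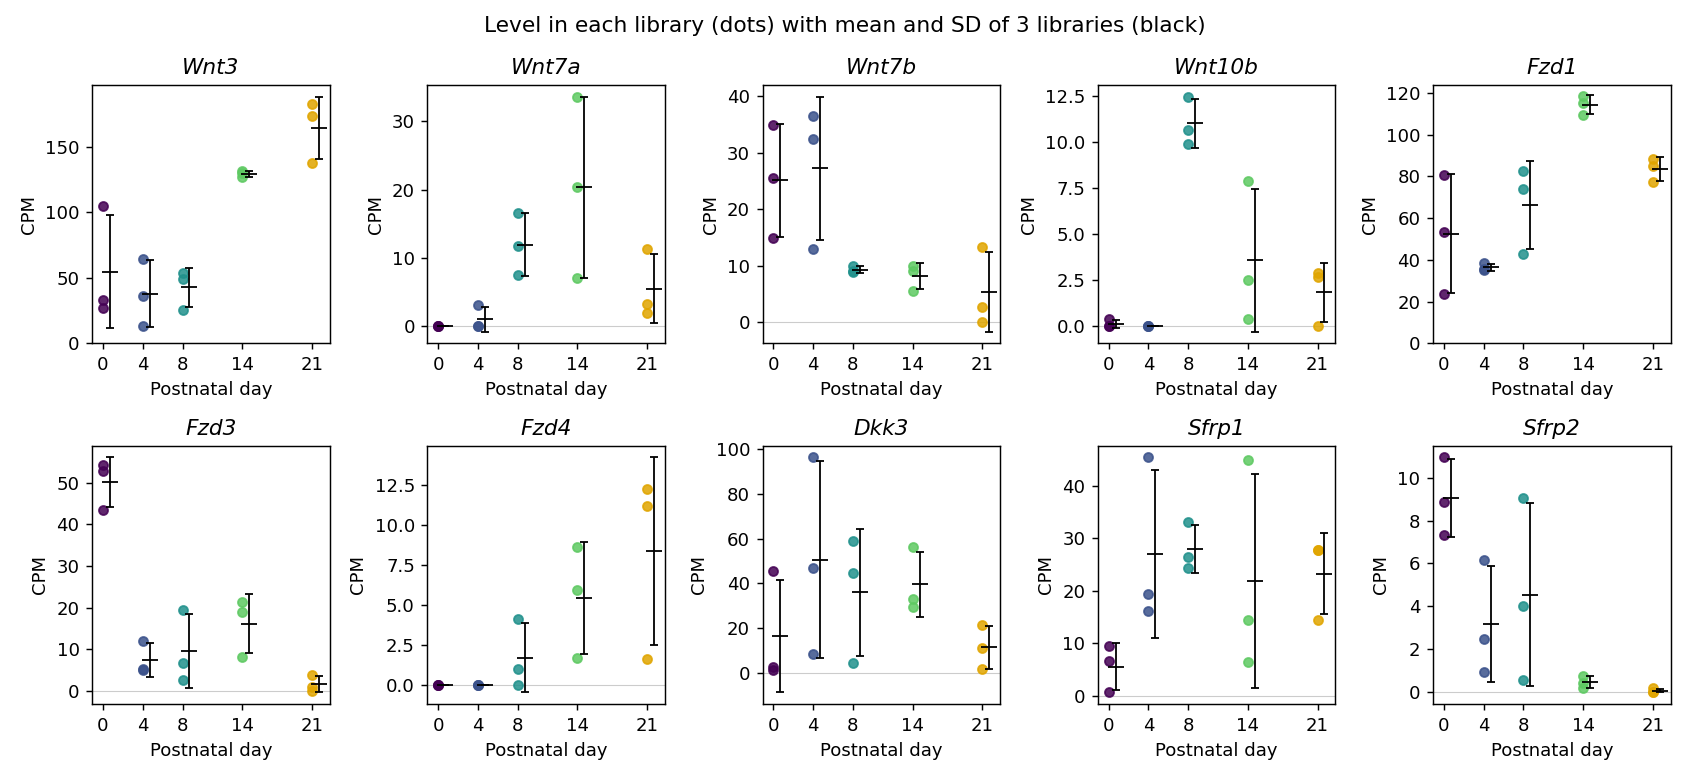
Level in CPM (y axis, linear, a separate scale for each gene) against postnatal day (x axis) for the 10 genes described library by library; each dot is a library and the black marks give the mean and SD of 3 libraries. Wnt3 lies at 126 to 183 CPM in the 6 libraries of P14 and P21, above all earlier ones, while Fzd3 lies at 43.4 to 54.4 CPM at P0 and below that afterwards.

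Wnt7a and Wnt10b were near 0 at first and reached their highest means in the second postnatal week. Wnt7a, which is known as a synaptogenic factor in the cerebellum, stood at 0 in all 3 P0 libraries. At P4 it was at 3.19, 0 and 0 CPM in replicates 1 to 3, at P8 at 11.7, 7.44 and 16.6, at P14 at 20.4, 33.5 and 7.10, and at P21 at 3.34, 1.91 and 11.4. P8 and P14 lay above P0 and P4 in every library, and P21 overlapped P8 and P14. The P14 mean was 20.4 ± 13.2 CPM (SD, n = 3). Pooled over replicates, P14 stood at 103 times the level that 3 counts over the pooled P0 libraries would give. That floor leaves out the spread between replicates, so the ratio is not a lower bound. The factor test called Wnt7a (adjusted p = 0.0245) and the trend test did not (slope 0.27 log2 CPM per day, SE 0.13, adjusted p = 0.154), except with log2(day + 1) in place of the day (adjusted p = 0.00815). The factor call was lost without P14 replicate 1 or P14 replicate 2 (adjusted p = 0.0524 to 0.0664) and without the P0 time point (0.166).

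Wnt10b, another ligand that can signal through beta-catenin, had its highest level at P8. It was at 0, 0 and 0.405 CPM in replicates 1 to 3 at P0 and at 0 in all of P4. At P8 it was at 10.7, 9.92 and 12.5, at P14 at 7.91, 0.383 and 2.5, and at P21 at 2.67, 0 and 2.88. The P8 libraries lay close together and above all 12 others. The P8 mean was 11 ± 1.31 CPM (SD, n = 3). Pooled over replicates, P8 stood at 65.0 times the level of 3 counts over the pooled P4 libraries, a floor without the spread between replicates. The factor test gave an adjusted p of 0.0321 and the step from P4 to P8 one of 0.0868. Leaving out 1 library ended the factor call in 10 of 15 cases, with adjusted p of 0.0508 to 0.0763. These were P0 replicate 2, each of the P4 and P8 libraries, P14 replicate 3 and P21 replicates 1 and 3. Wnt10b and Wnt1 lie 11706 bases apart on chromosome 15 in opposite orientation, and Wnt1 had no count in any library.

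Wnt7b was the ligand that fell. It is a close relative of Wnt7a and known to act on dendrite growth in other neurons. Its level was 34.8, 14.9 and 25.5 CPM in replicates 1 to 3 at P0, 36.5, 32.4 and 12.8 at P4, 8.87, 9.92 and 9.04 at P8, 9.02, 5.55 and 9.98 at P14, and 2.67, 0 and 13.3 at P21. P0 and P4 overlapped, P8 and P14 lay below both, and 1 P21 library lay within the range of P4. The P4 mean of 27.2 ± 12.6 CPM (SD, n = 3) was 5.12 times the P21 mean of 5.32 ± 7.03, and 20.4 times that mean without P21 replicate 3. The slope was -0.12 log2 CPM per day (SE 0.041, adjusted p = 0.0398), and the factor test did not call the gene (adjusted p = 0.269). The trend call was lost without any 1 of P0 replicates 1 and 3, P4 replicates 1 and 2, the 3 P14 libraries and P21 replicate 1 (adjusted p = 0.0550 to 0.0939). It was also lost with log2(day + 1) (0.0828) and without the P0 time point (0.114). Its exons share 324 bases with AU022754 on the other strand, a gene with 4 counts in all.

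Wnt5a, a ligand of the pathways that bypass beta-catenin, had the highest mean RPKM among the Wnt genes that edgeR did not call over all 15 libraries. It ranged from 0 to 46.5 CPM, with means of 12.1 ± 11.1 (SD, n = 3) at P0, 28.7 ± 15.5 at P8 and 1.87 ± 2.96 at P21, and its slope was -0.15 log2 CPM per day (SE 0.067, adjusted p = 0.111). The trend was called without the P0 time point (slope -0.22, adjusted p = 0.0261), and the factor test (adjusted p = 0.158) called Wnt5a with DESeq2 (0.0361), with limma-voom (0.0219) and without P21 replicate 3 (0.0171). Its P8 libraries all lay above those of P14 and P21 and its P4 libraries above those of P21, while the other time points overlapped. Wnt9b, Wnt16, Wnt6 and Wnt4 were also tested and not called. Their highest single libraries stood at 19.6, 12.8, 5.85 and 4.63 CPM, and each was at 0 in at least 1 library. Wnt9b lies 24328 bases from Wnt3 on chromosome 11, in the opposite orientation, and its mean went from 7.74 ± 10.3 CPM at P0 to 2.37 ± 2.03 at P21 (slope -0.063, adjusted p = 0.552).

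The other 10 Wnt genes gave few counts or none. Wnt2b, Wnt5b, Wnt9a and Wnt11 were counted below the filter. Without a filter Wnt5b was called falling (adjusted p = 0.0149) and Wnt11 rising (0.0445), and Wnt11 was also called without any 1 of the P21 libraries (0.0175 to 0.0195). Wnt5b was seen in P0 replicate 1 alone, at 9.42 CPM, and Wnt11 in the 3 P14 libraries alone, with a mean of 3.61 ± 2.92 CPM. Wnt1, Wnt2, Wnt3a, Wnt8a, Wnt8b and Wnt10a had no count in any library. A count of 0 allows a level of up to 0.384 to 0.880 unscaled CPM, depending on the depth of the library, and this covers counting error only.

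Compared per length, Wnt3 made up most of the Wnt transcripts at the late time points. The RPKM summed over the 19 Wnt genes had means of 31.0 ± 14.3 (P0, SD, n = 3), 24.8 ± 3.65 (P4) and 30.2 ± 2.6 (P8), followed by 50.8 ± 4.76 (P14) and 52.2 ± 3.88 (P21). The share of Wnt3 in this sum was 39.1 to 83.5% at P0, 20.7 to 71.3% at P4, 31.7 to 56.8% at P8, 72.9 to 85.0% at P14 and 80.6 to 95.0% at P21. The shares at P14 and P21 lay above all of those at P4 and P8 and overlapped those at P0. Without Wnt3, the summed RPKM of the Wnt genes had a mean of 11.1 at P0, 15.8 at P8 and 5.54 at P21.

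**Figure D2:**
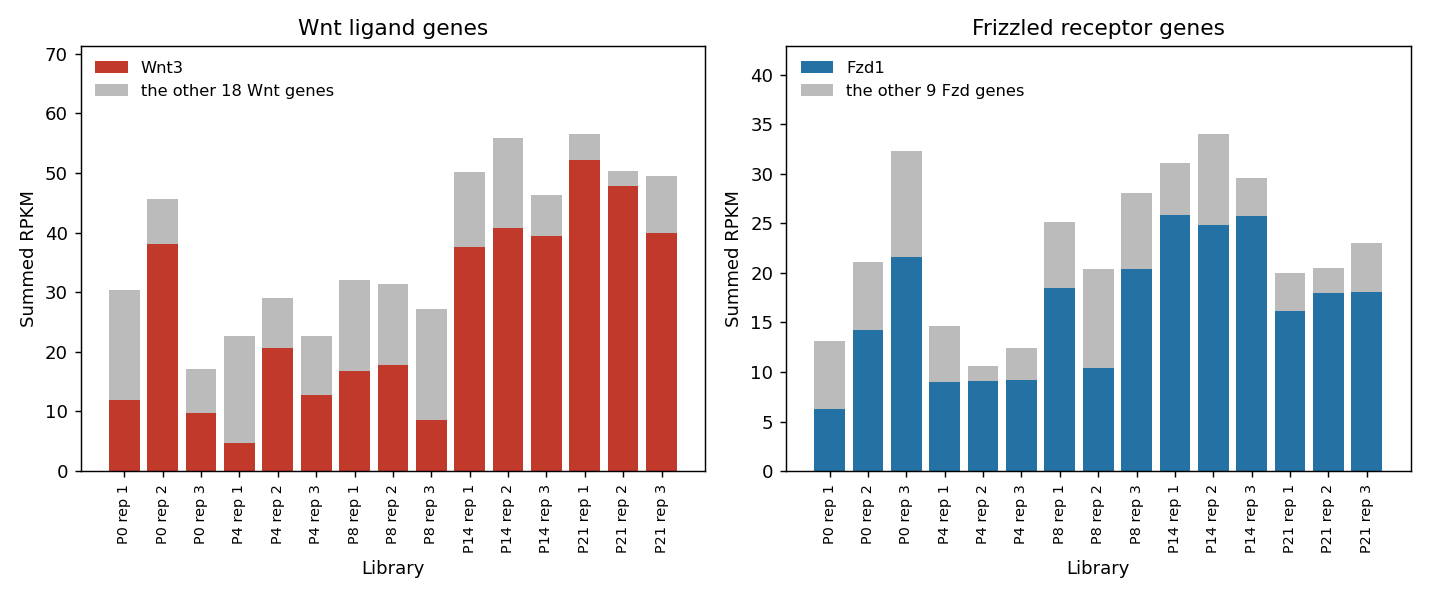
RPKM summed over the 19 Wnt genes (left) and the 10 Fzd genes (right) in each of the 15 libraries (x axis), split into Wnt3 or Fzd1 (coloured) and the other genes of the family (grey). Wnt3 makes up 72.9 to 95.0% of the Wnt sum in the libraries of P14 and P21, and Fzd1 72.9 to 87.3% of the Fzd sum.

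Among the receptors, Fzd1 had the highest RPKM in every library. It encodes a Frizzled that can act through beta-catenin. Fzd1 stood at 23.7, 53.2 and 80.9 CPM in replicates 1 to 3 at P0, at 35.3, 38.4 and 35.6 at P4, at 73.8, 42.7 and 82.7 at P8, at 119, 109 and 115 at P14, and at 77.1, 88.5 and 85.0 at P21. All P14 libraries lay above the 12 others, and P0 and P8 were spread widely.

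The P14 mean of Fzd1 was 114 ± 4.66 CPM (SD, n = 3), or 3.14 times the P4 mean of 36.5 ± 1.71, and the P21 mean was 83.6 ± 5.85. The slope was 0.056 log2 CPM per day (SE 0.019, adjusted p = 0.0362), and the factor test gave an adjusted p of 0.0245. The trend call was lost without P0 replicate 1 or 2 or without any 1 of the P4 and P14 libraries (adjusted p = 0.0504 to 0.0889), and with log2(day + 1) (0.0830). The factor call was lost without P4 replicate 1 or 3 or any 1 of the P14 libraries (0.0576 to 0.0699). Fzd1 made up 47.7 to 67.3% of the summed Frizzled RPKM at P0 and 78.3 to 87.3% at P21. The glial markers Slc1a3, Gdf10 and Hopx also had their highest mean at P14, and the other glial markers at P8 or P21. The part of glia in the level of Fzd1 was not tested.

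Fzd4 and Fzd3 moved in opposite directions. Fzd4, the receptor of Norrin as well as of Wnt ligands and well known from blood vessels, had no count in any P0 or P4 library. It stood at 1.01, 0 and 4.16 CPM in replicates 1 to 3 at P8, at 8.65, 5.94 and 1.73 at P14, and at 1.67, 12.3 and 11.2 at P21. The last 3 time points overlapped. The P21 mean was 8.39 ± 5.84 CPM (SD, n = 3). Pooled over replicates, P21 stood at 48.2 times the level of 3 counts over the pooled P0 libraries, a floor without the spread between replicates. The slope was 0.38 log2 CPM per day (SE 0.097, adjusted p = 0.00629), a fitted value that is not a bound because of the libraries at 0. The trend call was kept without any single library and was lost without the P0 time point (0.0610). The factor test gave 0.0263, and this call was lost without P14 replicate 1 or 2 or P21 replicate 2 or 3 (0.0515 to 0.0663), without the P0 time point (0.0599) and with the replicate block (0.0647). The 3 endothelial markers Cldn5, Pecam1 and Flt1 had a summed mean of 75.8 CPM at P0 and 23.7 at P21. Pecam1 was called falling (34.6 to 1.56 CPM), while Cldn5 (31.3 to 6.16 CPM) and Flt1 (9.90 to 16.0 CPM) were not called, and the part of vessels in the level of Fzd4 was not tested.

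Fzd3 is a receptor of the planar polarity pathway, known for its part in axon guidance. It stood at 52.7, 54.4 and 43.4 CPM in replicates 1 to 3 at P0, at 4.91, 5.30 and 12 at P4, at 2.62, 19.5 and 6.69 at P8, at 19, 21.3 and 8.06 at P14, and at 0, 3.81 and 0.961 at P21. Every P0 library lay above every later one, a pattern shown by 2.41% of all tested genes and by no other member. The P4, P8 and P14 libraries overlapped, and 2 of the 3 P21 libraries lay below all others.

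The P0 mean of Fzd3 was 50.1 ± 5.92 CPM (SD, n = 3), or 31.5 times the P21 mean of 1.59 ± 1.98, and 104 times that mean without P21 replicate 2. The slope was -0.16 log2 CPM per day (SE 0.049, adjusted p = 0.0210), and the factor test gave 0.0127. Without the P0 time point, where the capture was different, the slope was -0.076 and neither the trend (adjusted p = 0.611) nor the factor test (0.234) called the gene. The trend call was also lost without P0 replicate 2 or P21 replicate 3 (0.0522 to 0.0544). The step from P0 to P4 had a log2 fold change of -2.75 (SE 0.92, adjusted p = 0.158), and that from P14 to P21 one of -3.28 (SE 0.97, adjusted p = 0.323).

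Fzd2, Fzd6 and Fzd7 passed the filter and were not called. Fzd2 had a mean of 10.3 ± 5.54 CPM (SD, n = 3) at P8 and 0.165 ± 0.167 at P21, with 2 counts over the P21 libraries (slope -0.20, SE 0.096, adjusted p = 0.141). Fzd2 was called falling without the P0 time point (adjusted p = 0.0286) and without P0 replicate 2 (0.0408). Fzd6 ranged from 0 to 26.1 CPM and Fzd7 from 0 to 9.27 CPM. The Fzd6 libraries of P8 and P14 lay above those of P4, and the Fzd7 libraries of P14 above those of P0, P4 and P21. The other time points overlapped in both genes. Fzd5, Fzd8, Fzd9 and Fzd10 were counted below the filter, with no library above 8.72 CPM. Fzd9 was called rising by the trend test without P4 replicate 1 (adjusted p = 0.0251). All 10 Frizzled genes thus had counts, which was true of 13 of the 19 Wnt genes.

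**Figure D3:**
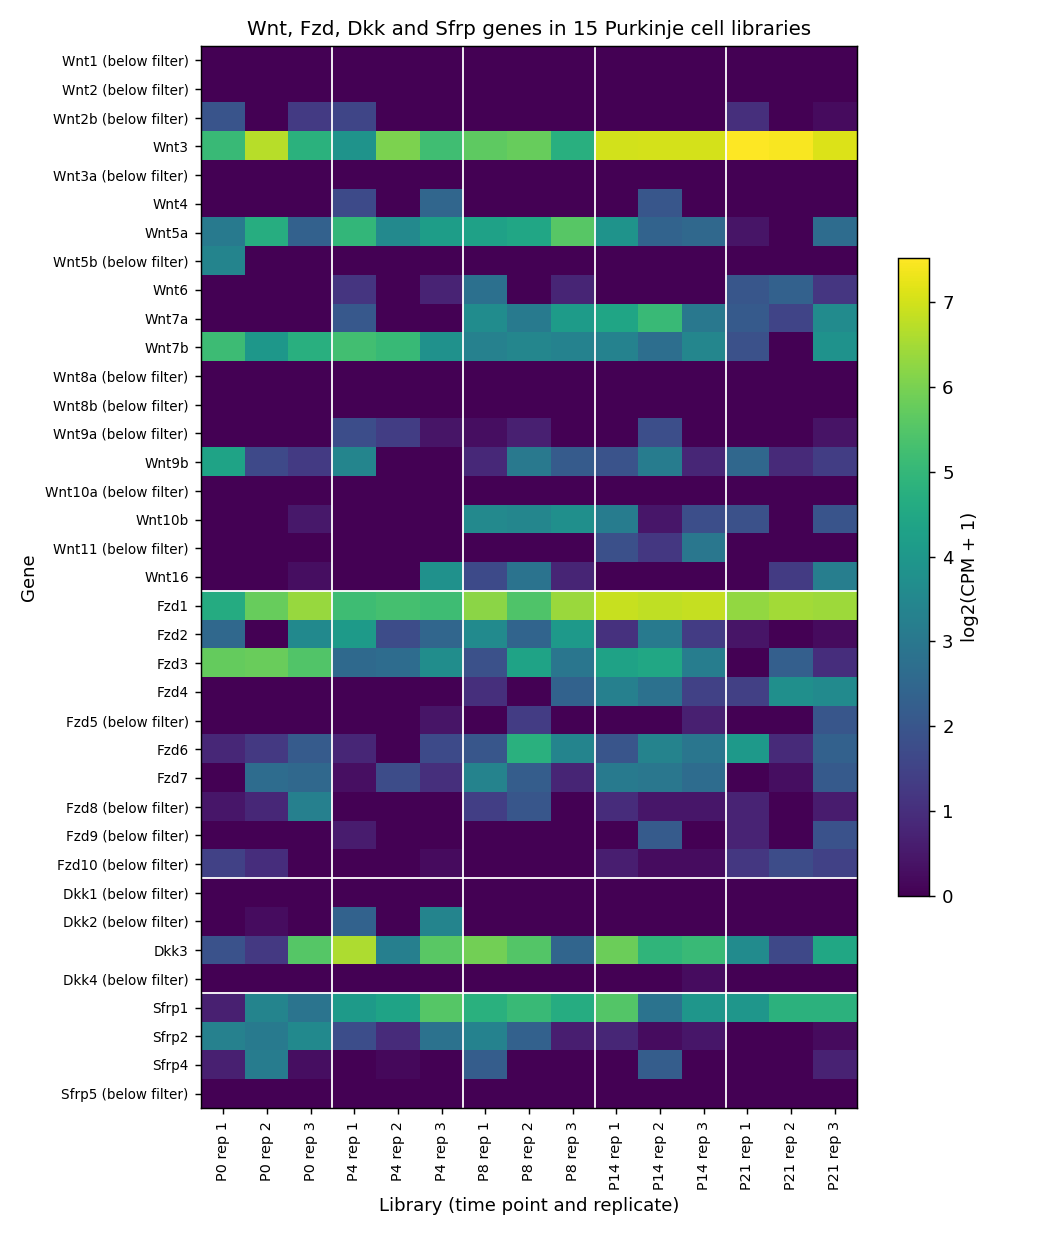
Level as log2(CPM + 1), given by colour, of all 37 genes (rows, grouped as Wnt, Fzd, Dkk and Sfrp by the white lines) in the 15 libraries (columns, in order of age). Wnt3 is at 13.5 to 104 CPM in the 9 libraries up to P8 and at 126 to 183 CPM at P14 and P21, and the 8 genes with no count are dark throughout.

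Among the antagonists, Sfrp2 fell while the more abundant Dkk3 and Sfrp1 were not called. Sfrp2 stood at 8.85, 7.34 and 10.9 CPM in replicates 1 to 3 at P0, at 2.45, 0.906 and 6.17 at P4, at 9.07, 4.01 and 0.542 at P8, at 0.736, 0.192 and 0.384 at P14, and at 0, 0 and 0.160 at P21. P0 lay above P4, P14 and P21 in every library, and P8 overlapped P0, P4 and P14. Summed over replicates, 137 counts at P0 stood against 7 at P14 and 1 at P21. The slope was -0.31 log2 CPM per day (SE 0.069, adjusted p = 0.00234), and this call was kept without any single library and without the P0 time point. The factor test gave 0.0265, and its call was lost without P0 replicate 3, P14 replicate 2 or 3 or any 1 of the P21 libraries (0.0506 to 0.0781), without a filter on low counts (0.0507) and without the P0 time point (0.0880). The exons of Sfrp2 share 347 bases with Gm26771 on the other strand, which had 103 counts. The counting is not stated to use strand, so reads of that stretch cannot be assigned to either gene.

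Dkk3, a Dickkopf relative with little known effect on the Wnt co-receptors, had the highest RPKM of the antagonists (mean over the 15 libraries 9.37). It stood at 2.69, 1.39 and 45.4 CPM in replicates 1 to 3 at P0, at 96.2, 8.54 and 46.9 at P4, at 59.1, 44.8 and 4.52 at P8, at 56.3, 29.5 and 33.0 at P14, and at 11.3, 2.12 and 21.3 at P21. At P0, P4 and P8 the highest replicate lay more than an order of magnitude above the lowest, and all time points overlapped except P14 and P21. The slope was -0.042 log2 CPM per day (SE 0.062, adjusted p = 0.678), and the factor test gave 0.587.

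Sfrp1, the second most abundant antagonist per length, stood at 0.577, 9.52 and 6.49 CPM in replicates 1 to 3 at P0, at 16.2, 19.4 and 45.4 at P4, at 26.4, 33.0 and 24.2 at P8, at 44.9, 6.32 and 14.4 at P14, and at 14.3, 27.8 and 27.7 at P21. The P0 libraries lay below all others except P14 replicate 2. The P8 mean of 27.9 ± 4.57 CPM (SD, n = 3) was 5.04 times the P0 mean of 5.53 ± 4.55, or 7.9 times without P0 replicate 2, and neither the trend (slope 0.042, SE 0.043, adjusted p = 0.527) nor the factor test (0.276) called the gene. Sfrp4 was tested and not called, with at most 7.94 CPM. Dkk2 and Dkk4 were counted below the filter, Dkk2 mostly at P4, where 1 library reached 9.59 CPM. By the trend test Dkk2 was called falling without a filter (adjusted p = 0.0296). It was also called without any 1 of the P0 or P8 libraries or without P4 replicate 2 (0.0244 to 0.0387). Dkk1 and Sfrp5 had no count in any library.

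**Figure D4:**
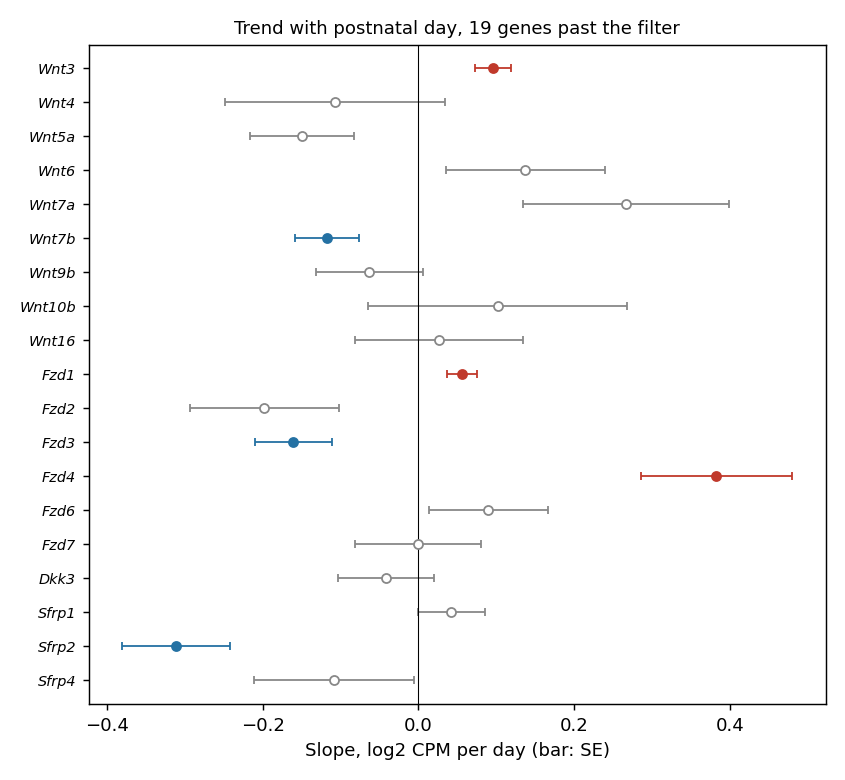
Slope of the edgeR trend fit in log2 CPM per postnatal day (x axis, bar: SE) for the 19 genes that passed the filter (y axis); filled red marks rose, filled blue marks fell and open grey marks did not pass an adjusted p of 0.05. The slope of Wnt3 is 0.096 with an SE of 0.023, while Fzd4, at 0.38, has a larger slope and a larger SE of 0.097.

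No member passed the threshold in any of the 4 steps between neighbouring time points in edgeR. Of all tested genes, 1.97% were called from P0 to P4, 1.13% from P4 to P8, 2.67% from P8 to P14 and 0.329% from P14 to P21. At an unadjusted p below 0.05 there were 3, 5, 5 and 4 of the 19 tested members in the 4 steps, where all tested genes gave 14.9%, 11.8%, 13.4% and 7.02%. DESeq2 called 1 member in each step, namely Fzd3, Wnt10b, Wnt3 and Fzd3 in this order, and 5.49%, 3.47%, 5.90% and 1.21% of all tested genes. By limma-voom the calls were Fzd3 from P0 to P4, Wnt10b and Wnt7a from P4 to P8, Wnt3 from P8 to P14, and none from P14 to P21, against 1.98%, 2.17%, 4.20% and 0.371% of all tested genes. In edgeR, leaving out P4 replicate 1 gave 1 call from P4 to P8, that of Wnt7a.

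The order of the members by mean RPKM over the 15 libraries was led by Wnt3 (26.6) and Fzd1 (16.5), 1 ligand and 1 receptor. Dkk3 (9.37) and Sfrp1 (4.77) came next, then Wnt7b (3.20), Wnt7a (2.37) and Wnt5a (1.85). The mean RPKM of Wnt3 was above that of Fzd1 at P0, P4, P14 and P21 (46.6 against 17.4 at P21) and below it at P8 (14.4 against 16.4). The order was not the same at every age: Dkk3 led at P4 (16.1 against 12.7 for Wnt3), and Wnt7a lay above Sfrp1 at P14 (6.02 against 4.62).

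Of the other genes of the pathway, 76 were listed and 67 passed the filter, of which 7 rose and 14 fell with age. These are 10.4% and 20.9% of the 67, beside the 12.1% and 14.1% of all tested genes given above. The median slope of the 67 genes was -0.032 log2 CPM per day. The genes that rose were Lgr4, Rspo3, Daam2, Notum, Porcn, Celsr2 and Wls. Those that fell were Csnk1e, Apc, Apc2, Ccnd1, Vangl2, Bcl9, Ryk, Dkkl1, Nkd2, Ctnnbip1, Apcdd1, Mapk8, Ctnnb1 and Celsr1.

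By role, all 3 genes listed under ligand lipid modification and secretion rose, where 12.1% of all tested genes rose. They were Porcn, which attaches the lipid, Wls, which carries the ligand to the cell surface, and Notum, which removes the lipid. Notum had no count in any P0 or P4 library and passed the filter through later libraries alone. The lists were drawn up with earlier results of these data known, so the counts by role are a description and not a test. The trend call of Wls was lost with log2(day + 1) and that of Porcn without the P0 time point. The factor test did not call Notum (adjusted p = 0.0675), and the mean of Porcn was 154 CPM at P14 and 110 at P21. Of the 27 genes of signal transduction inside the cell, all tested, 6 were called and all 6 fell (22.2%, against 14.1% of all tested genes). Of 6 target genes Ccnd1 and Nkd2 were called and fell. Of 12 planar polarity genes 2 rose and 3 fell, of 7 tested co-receptors Ryk alone fell, of 8 tested secreted regulators Rspo3 rose and Dkkl1 and Apcdd1 fell, and of 4 tested genes of the R-spondin receptor group Lgr4 rose.

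Rspo3, a secreted R-spondin that enhances Wnt signals through Lgr receptors, also rose late. It was at 0 in all P0 and P4 libraries, at 5.04 to 6.87 CPM at P8, at 26.6 to 39.0 at P14 and at 40.2 to 63.8 at P21, so that P8, P14 and P21 lay in order with no overlap. Its slope was 0.46 (SE 0.073, adjusted p = 1.04e-04), and the steps from P4 to P8 (adjusted p = 0.00101) and from P8 to P14 (0.0351) were both called. Lgr4, its receptor, went from a mean of 80.3 ± 34.2 CPM (SD, n = 3) at P0 to 272 ± 55.0 at P21, and all libraries of P14 and P21 lay above all earlier ones (slope 0.087, SE 0.014, adjusted p = 8.27e-05). Daam2 and Notum rose from 0 in all P0 libraries to means of 13.3 ± 4.33 and 7.70 ± 7.19 CPM at P21, with adjusted p of 4.25e-04 and 0.00168. Wls, chosen for its values once they had been seen, had means of 62.4, 28.9, 21.5, 120 and 190 CPM from P0 to P21, and its step from P8 to P14 was called (log2 fold change 2.48, SE 0.50, adjusted p = 0.0120).

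Among the genes that fell, Csnk1e, a casein kinase that acts on Dishevelled, went from a mean of 114 ± 39.6 CPM at P0 to 19.6 ± 3.17 at P21 (slope -0.12, adjusted p = 3.69e-06). Apc and Apc2, scaffolds of the complex that degrades beta-catenin, went from 297 ± 22.1 to 83.6 ± 22.3 CPM and from 223 ± 1.68 to 81.7 ± 9.68 CPM (adjusted p = 8.04e-06 and 2.13e-04). Ccnd1, a cyclin and target of the pathway in dividing cells, went from 48.9 ± 3.19 to 2.75 ± 2.22 CPM (adjusted p = 3.43e-04). In each of these 4 genes, which were chosen for their small p, every P21 library lay below every P0 library. The share of all tested genes with this pattern was not counted.

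**Figure D5:**
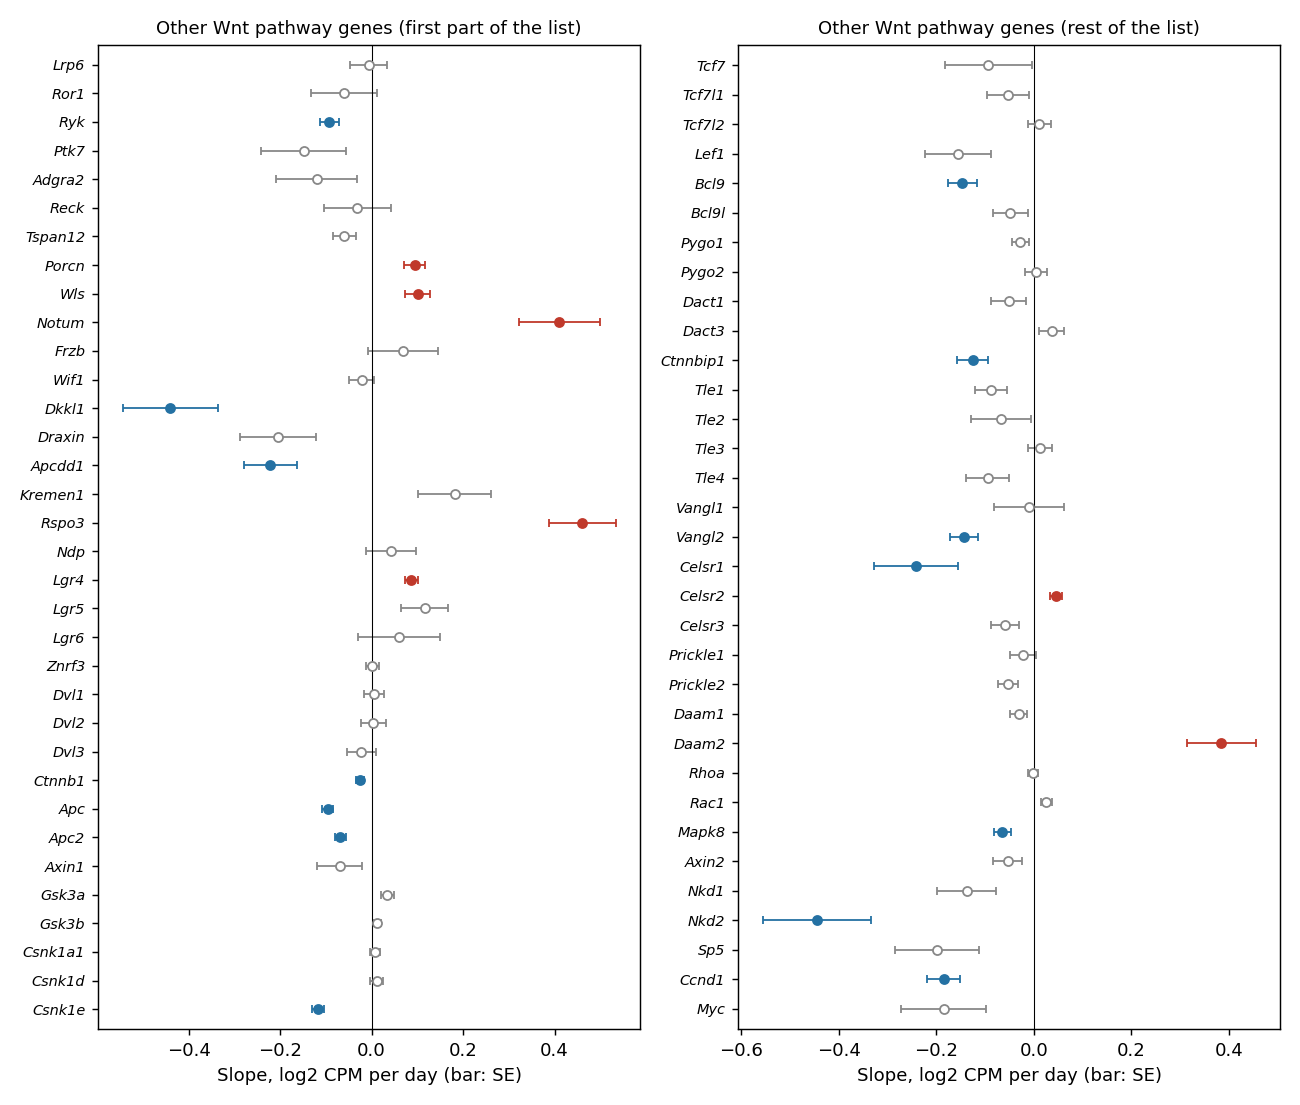
Slope of the edgeR trend fit in log2 CPM per postnatal day (x axis, bar: SE) for the 67 other genes of the pathway that passed the filter, in the order of the list and split over 2 panels. Filled red marks (7 genes, such as Rspo3 at 0.46) rose, filled blue marks (14 genes, such as Csnk1e at -0.12) fell and open grey marks were not called.

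Markers of other cells did not share 1 course. The summed glial level was highest at P8, as were the means of Wnt5a, Wnt10b, Fzd2, Fzd6 and Sfrp1, and the part of glia in these levels was not tested. Of the 8 glial markers Fabp7, Aqp4, Gfap and Aldh1l1 had their highest mean at P8, Slc1a3, Gdf10 and Hopx at P14 and S100b at P21. The means of Fzd1, Wnt7a and Fzd7 were also highest at P14, and the part of glia in them was not tested either. By the trend test 3 glial markers rose (Slc1a3, Hopx and S100b) and 2 fell (Fabp7 and Aldh1l1). The 5 granule cell markers summed to 150 to 276 CPM at P0 and 353 to 889 CPM at P14 with Atoh1 at 0 throughout, 2 of them rising. Those of interneurons (4 genes) had their highest summed mean at P4, with 46.6 CPM at P0, 139 at P4, 85.4 at P8 and 32.2 at P21. Those of microglia (4 genes) had summed means of 3.43, 10.6, 20.4 and 3.95 CPM at the same ages. No gene of either group was called by the trend test. Of 5 markers of meninges and choroid plexus 1 fell, and their sum reached 184 CPM in 1 P4 library.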

How the data were processed

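RNA of laser-captured PCs was sequenced at 5 postnatal ages, each with 3 replicates. The deposited files hold raw counts of reads per gene, 1 file per library. To make them, the authors trimmed reads with cutadapt 1.2.1, aligned them with GSNAP to the mouse genome (mm10; GRCm38.p1 in the submitters' processing notes) and counted uniquely mapping reads with HTSeq 0.5.3p9 in its strict intersection mode. The annotation release used for counting is not given in the sources used here. Amplified cDNA without molecular identifiers was sequenced, so intervals and floors cover counting error only, and reads shared with overlapping genes may be missing.

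Symbols, biotypes and exon lengths were taken from GENCODE M21, which held 36639 of the 38561 gene identifiers, and promoters from RefSeq (GRCm38.p6), with a window for 25 of the 37 genes. The members and the lists of pathway and marker genes were chosen with earlier results of these data known. Values in every library were given for members called in any edgeR test, for Wnt3 and for the member of each family with the highest mean RPKM. Of the other pathway genes, those with a trend were named, with values for the 4 with the smallest p in each direction and for Wls, which was added once values had been seen.

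Counts were analysed with edgeR 4.0.16 in R 4.3.3 (TMM scaling, filterByExpr by time point, glmQLFit and glmQLFTest) over all 15 libraries, with Benjamini-Hochberg adjustment over the 14293 genes tested and a threshold of 0.05. RPKM used total counts on genes. The fits were tested on simulated data with known slopes. Alternatives were size factors by relative log expression (RLE), DESeq2 1.42.0, limma-voom (limma 3.58.1), no filter, a block on the replicate number, log2(day + 1), omission of P0 and omission of each library. No library was left out of the fits reported.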

Additional observations from a re-analysis of the deposited data

How the results depend on the processing

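The count of members with a trend (6) was 4 to 7 when 1 library was left out and 4 to 9 under the other alternatives, and the same 6 genes were called with RLE size factors, DESeq2, limma-voom and the replicate block. The genes behind the count changed in other fits. Without the P0 time point 5 members were called, 3 of them among these 6. In some fits with 1 library left out, Dkk2, Wnt11, Fzd9 or Fzd2 was called while calls of the main fit were lost. With 1 library left out, 2 to 4 rose and 2 to 4 fell. Without a filter on low counts 5 members fell. The members changed in any pattern (7) numbered 3 without the P0 time point and 3 to 7 with 1 library left out, where the fits tested more genes. In the steps, where edgeR called 0, DESeq2 called 1 member in each, limma-voom called 1 from P0 to P4, 2 from P4 to P8 and 1 from P8 to P14, and 1 was called from P4 to P8 without the P0 time point. With 1 library left out the steps gave 0 to 0 calls, except 0 to 1 from P4 to P8. Of the other pathway genes (21 with a trend), 20 to 24 were called with 1 library left out, 7 to 8 of them rising and 13 to 16 falling, and 9 fell without the P0 time point. Of all tested genes, 1800 to 2161 fell with 1 library left out, against 2021 in the main fit. Other shares of all tested genes in these fits are not given. A change particular to the members can therefore not be told from a general change in calls. The causes of these changes were not tested.

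Among the genes described library by library, slopes that turned their sign belonged to members not called by the trend test. They were Wnt10b without the P0 time point (-0.061 per day), Sfrp1 without the P0 time point (-0.015), and Dkk3 with limma-voom (0.018 per day) and with log2(day + 1) (0.066 per unit). The signs of the other tested members were not compared. Over all tested genes, libraries with the same replicate number did not deviate together (r over 30 pairs -0.032 to 0.047). A shared effect on a small part of the genes would not show in this value, so pairing by number is not excluded. With the replicate block 6 members had a trend, 6 changed in any pattern, the call of Fzd4 being lost (adjusted p = 0.0647), and 0 changed in each step. Depth limits the low members most: 3 counts correspond to 0.384 to 0.880 unscaled CPM, so changes below that level were not detectable.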
